A study of Mus musculus with 6 samples.

Results

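Interferon-stimulated genes were examined in colonic epithelial cells of mice with and without Nr3c1, which encodes the glucocorticoid receptor. The 35 genes are a list of known interferon-response genes given by name, not chosen by a threshold on these values, and all 35 had a row among the 23725 genes of the table. This list and the further gene lists below were chosen with earlier results of these data known. Shares of genes called in them are therefore descriptive. Cells came from C57BL/6J mice and were enriched on a Percoll gradient without culture. The knockout group (n = 3 libraries) has the genotype B6-Cg-Nr3c1-Vil-Cre/ERT2 (Nr3c1IEC-/-), in which an inducible Vil-Cre/ERT2 transgene, driven by the villin promoter of intestinal epithelium, removes the receptor gene after tamoxifen, and the comparison group (n = 3) is labelled wild type. Both groups received tamoxifen by intraperitoneal injection on 5 consecutive days and were sampled 7 days after the first injection. The labels give neither the exon deleted nor the age of the mice, and they do not say whether the wild-type mice carried the transgene, so loss of the receptor and presence of Cre cannot be told apart.

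Interferons are secreted signalling proteins, and those of type I and III are released by cells that sense viral or bacterial nucleic acid. Type I interferons (alpha, beta) and type III interferons (lambda) act through the kinases JAK1 and TYK2 and a complex of STAT proteins with IRF9 that binds the interferon-stimulated response element, whereas type II interferon (gamma), made chiefly by T cells and natural killer cells, acts through JAK1 and JAK2 and a STAT dimer that binds the gamma-activated site. Ifit, Oas and Mx genes are classical type I and III targets, and the guanylate-binding proteins (Gbp) and immunity-related GTPases (Irg) are most strongly induced by gamma, although many of these genes respond to both kinds. In the gut, epithelial cells carry the lambda receptor, and interferon signalling there is known for defence against enteric viruses.

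Values are reads per gene scaled by 1 size factor per library, called normalized reads, and are given in the order wild type 1, 2 and 3, then knockout 1, 2 and 3. Libraries held 10089313 to 12030844 reads, and libraries of 1 group correlated across genes, which are not replicates, at 0.960 to 0.982, and libraries of different groups at 0.848 to 0.941. Nr3c1 stood at 1119.8, 967 and 197 normalized reads in the wild-type libraries and at 145, 123 and 175 in the knockout libraries. Thus the library labelled wild type 3 had an Nr3c1 level close to the knockout range, against its label. Over all genes tested it correlated with wild type 1 and 2 at 0.979 and 0.978, and with the knockout libraries at 0.891 to 0.941. Wild type 1 and 2 correlated less with each knockout library than it did, at 0.848 to 0.911 and 0.849 to 0.916. The log2 difference, knockout minus wild type, was -2.03 (SE 0.60, limma adjusted p = 0.0372), and a two-sided exact permutation test of the means gave p = 0.1, the smallest possible with 3 against 3 libraries. Without the library labelled wild type 3 the log2 difference was -2.82 (limma adjusted p = 0.00072). Epithelial markers (Epcam, keratins, villin and others, 8 in all) summed to between 244051 and 306370 normalized reads in every library, so the labelled cell type was present throughout. The 4 pan-leukocyte markers, led by Ptprc and Laptm5, summed to 142, 119 and 214 in the wild-type libraries and to 969.7, 457 and 683 in the knockout libraries. In bulk RNA, more cells of a type and more RNA per cell cannot be told apart.

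Most of the 35 genes were higher in the knockout libraries. In the limma fit on log2(normalized reads + 1) over the 12837 genes that reached 10 normalized reads in 3 or more libraries, 21 of the 35 members were raised at an adjusted p under 0.05 and 14 were not called, against 15.0% of all genes tested raised and 15.4% lowered. No member was lowered by limma, edgeR or DESeq2, and 1 member (Irf7) was lower at an unadjusted limma p under 0.05. The same 21 members, and no others, had all 3 knockout libraries above all 3 wild-type libraries, a pattern seen in 25.2% of all genes tested. The median log2 change of the 35 was 1.31, against 0.01 for all genes tested, and 22 members had a mean at least 2-fold higher in the knockout group. All 35 members passed the filter on low values. Because the list was chosen with earlier results known, its excess over the share of all genes is not a test. The labels do not tie the libraries to single mice or batches, so the p-values measure only the spread between these libraries, which may be technical.

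**Figure D1:**
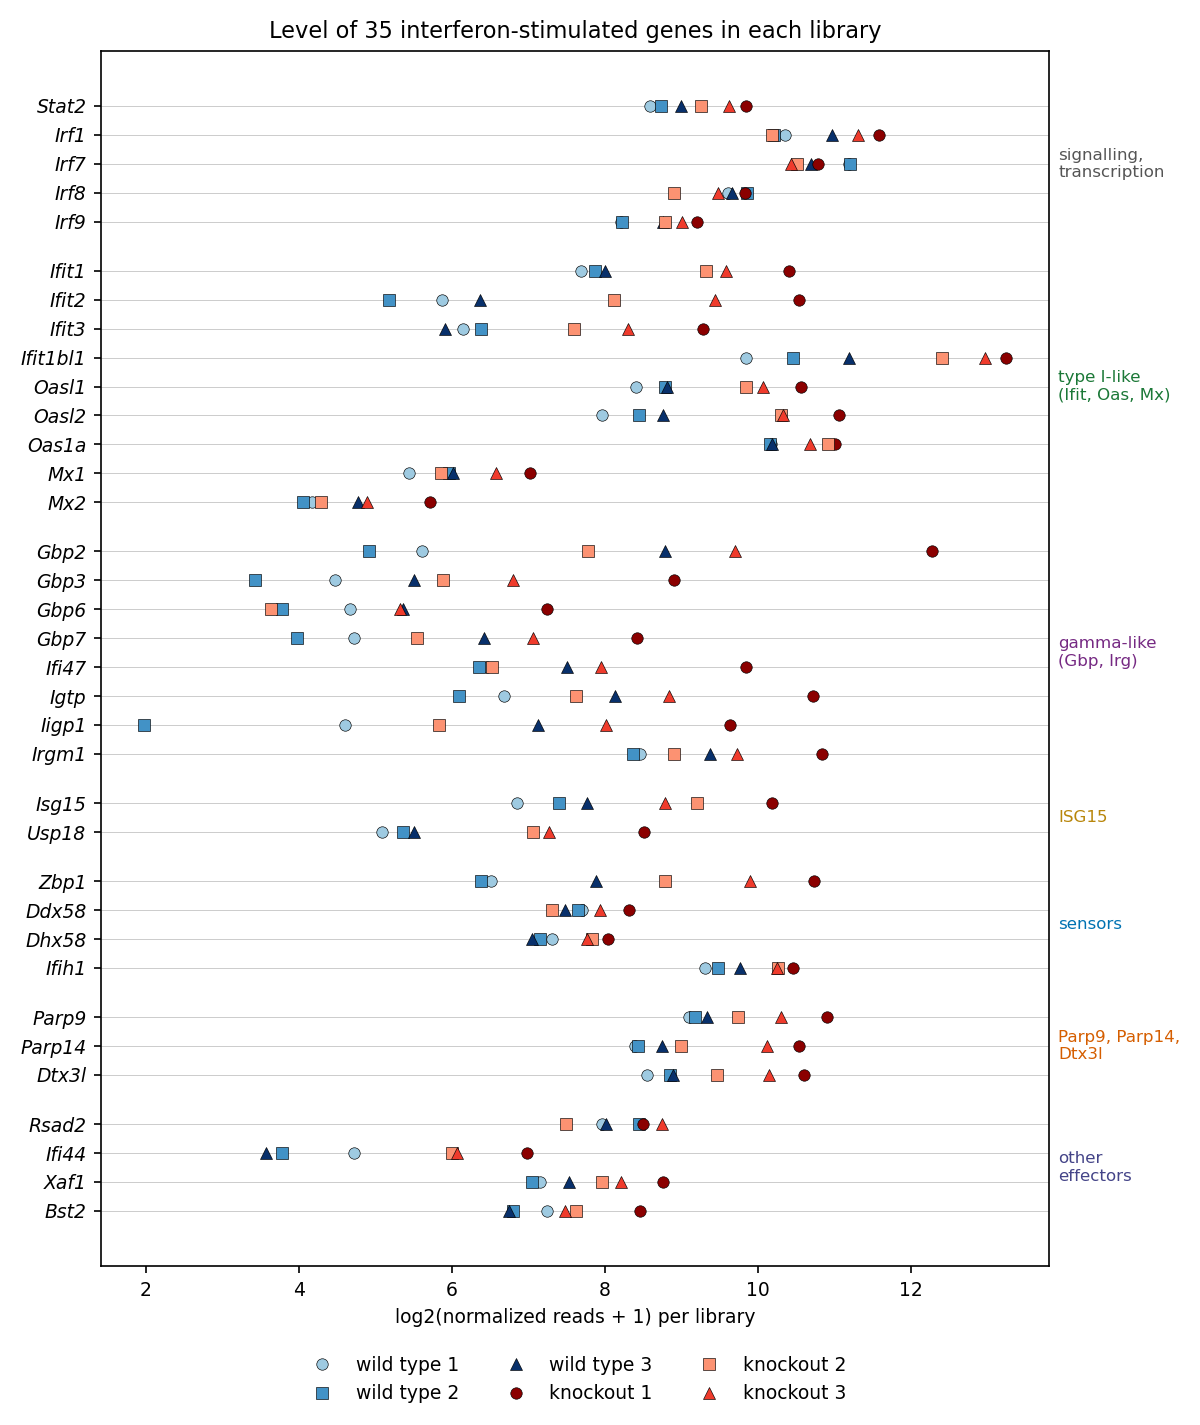
Level of each of the 35 genes in each of the 6 libraries, on a scale of log2(normalized reads + 1), with wild-type libraries in blue and knockout libraries in red. Blue and red symbols separate fully in the Ifit and Oas rows, whereas in 7 of the 8 Gbp and Irg rows knockout 2 lies below the library labelled wild type 3.

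Promoter sequences from RefSeq (GRCm38.p6) are shown first because the arms of the pathway read different DNA motifs. RefSeq promoters were matched for 26 of the 35 members, all but Mx1, Mx2, Gbp6, Zbp1, Usp18, Dhx58, Iigp1, Parp9 and Parp14. The interferon-stimulated response element was searched as GAAANNGAAA and the gamma-activated site as TTCNNNGAA, both on either strand and within the 250 bases before the start of transcription. Matches of one motif can overlap each other or the other motif. The response element was found in 13 of the 26 genes (50%), against 3.46% of the 27025 genes in the table, and the gamma-activated site in 7 (26.9%), against 8.13%. Of 7 matched Ifit and Oas genes 4 held the response element, and of 6 matched Gbp and Irg genes 5 did. The gamma-activated site was in 2 of the 7 and 2 of the 6. Both motifs were thus found on both the type I-like and the gamma-like side of the list.

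Each line below holds the 200 bases before a RefSeq start, 5′ to 3′ on the strand of the gene, with motif matches in capitals. Ifit3 (chr19:34583329-34583528, plus strand), Isg15 (chr4:156200819-156201018, minus strand) and Oas1a (chr5:120907526-120907725, minus strand) stand for the type I-like side, and Igtp (chr11:58199356-58199555, plus strand), Gbp7 (chr3:142530136-142530335, plus strand) and Irf1 (chr11:53769814-53770013, plus strand) for the gamma-like side and its transcription factor.
Ifit3: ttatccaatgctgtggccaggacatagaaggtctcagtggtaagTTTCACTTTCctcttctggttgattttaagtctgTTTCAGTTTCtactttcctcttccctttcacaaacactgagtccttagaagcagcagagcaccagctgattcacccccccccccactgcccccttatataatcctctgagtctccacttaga
Isg15: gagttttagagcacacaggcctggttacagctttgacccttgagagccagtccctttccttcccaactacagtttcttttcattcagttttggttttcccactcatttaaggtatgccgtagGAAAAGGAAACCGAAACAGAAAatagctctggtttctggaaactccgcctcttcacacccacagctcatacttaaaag
Oas1a: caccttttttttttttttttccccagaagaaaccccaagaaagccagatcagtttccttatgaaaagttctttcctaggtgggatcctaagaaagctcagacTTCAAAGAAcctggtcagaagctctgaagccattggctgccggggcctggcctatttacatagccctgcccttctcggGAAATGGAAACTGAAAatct
Igtp: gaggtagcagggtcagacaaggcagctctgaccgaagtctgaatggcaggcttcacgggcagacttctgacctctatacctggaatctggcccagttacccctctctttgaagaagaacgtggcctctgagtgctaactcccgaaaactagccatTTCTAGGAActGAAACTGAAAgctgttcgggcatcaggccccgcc
Gbp7: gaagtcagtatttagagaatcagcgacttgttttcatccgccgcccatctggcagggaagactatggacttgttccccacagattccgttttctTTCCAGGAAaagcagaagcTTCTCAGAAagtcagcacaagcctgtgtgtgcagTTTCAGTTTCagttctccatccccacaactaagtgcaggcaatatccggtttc
Irf1: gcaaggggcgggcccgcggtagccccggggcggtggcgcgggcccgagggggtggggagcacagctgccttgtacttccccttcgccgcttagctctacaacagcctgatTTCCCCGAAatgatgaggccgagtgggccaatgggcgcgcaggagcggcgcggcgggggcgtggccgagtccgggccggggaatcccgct
Positions count back from the start, so that -1 is the last base printed. Ifit3 had a response element match at -156 to -147 and another at -122 to -113. In Isg15 a run of 3 overlapping response element matches spanned -78 to -57. Oas1a had a pair of overlapping matches from -20 to -5 and a gamma-activated site at -98 to -90. Igtp held a gamma-activated site at -45 to -37 directly beside a response element at -34 to -25. Gbp7 carried gamma-activated sites at -106 to -98 and -87 to -79 and a response element at -53 to -44, and Irf1 held 1 gamma-activated site at -90 to -82. Every stretch printed holds a match, so these genes do not stand for members without one. Ifit2, Oasl1 and Oasl2 had no response element match in the bases searched, and a second RefSeq start of Irf1 had no match of either motif. The marked sites are letter matches, and binding at them was not measured here.

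Among the signal transducers and transcription factors, 2 of 5 were raised. Stat2 (Entrez 20847, chr10:128270498-128292853), the STAT protein specific to type I and III signalling, was 384, 423 and 512 in the wild-type libraries against 919, 612 and 789.5 in the knockout libraries, a log2 change of 0.80 (SE 0.18, limma adjusted p = 0.0139). Its DNA-binding partner Irf9 (Entrez 16391, chr14:55603985-55610030) was 295, 298 and 433 against 591, 443 and 514 (log2 change 0.60, SE 0.19, limma adjusted p = 0.0425). Both genes had groups that did not overlap, but for Irf9 the lowest knockout library was only just above the library labelled wild type 3, and edgeR put its adjusted p at 0.0501. Irf1 (Entrez 16362, chr11:53770014-53778374), an early gamma-responsive factor, was 1305, 1188 and 2001 against 3079.9, 1163 and 2542 (limma adjusted p = 0.299). Knockout 2 held the lowest Irf1 value of all 6 libraries while knockout 1 held the highest. Irf7 (Entrez 54123, chr7:141263183-141266499), the factor that amplifies type I interferon production, was 2351, 2358 and 1657 against 1775, 1464 and 1379, a log2 change of -0.45 (SE 0.17, limma adjusted p = 0.0787). The library labelled wild type 3 was the only wild-type library below knockout 1, and without it Irf7 passed as lowered (log2 change -0.62, limma adjusted p = 0.026, with 11.8% of genes lowered in that fit), as it did without knockout 1 (log2 change -0.56, limma adjusted p = 0.0477, with 13.0% of genes lowered). Irf8 (Entrez 15900, chr8:120736358-120756694), a factor of myeloid cells and of gamma responses, ranged from 782 to 929.9 in the wild-type libraries and from 479 to 908 in the knockout libraries (limma adjusted p = 0.307).

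Most type I-like effectors rose in the knockout libraries. Of 9 Ifit, Oas and Mx genes 7 were raised, none was lowered and Mx1 and Mx2 were not called, with a median log2 change of 1.92. The Ifit proteins bind foreign RNA ends and block its translation. Ifit1 (Entrez 15957, chr19:34640889-34650009) was 205, 234 and 255 in the wild-type libraries against 1361, 642 and 769 in the knockout libraries, from 231 ± 25.2 to 924 ± 384 (SD, n = 3; log2 change 1.92, SE 0.26, limma adjusted p = 0.00267). Ifit2 (Entrez 15958, chr19:34550550-34576534) was 57.3, 35.2 and 82.0 against 1489, 277 and 693 (log2 change 3.56, SE 0.57, limma adjusted p = 0.00465). Ifit3 (Entrez 15959, chr19:34583119-34588982), whose response elements are printed above, was 70.1, 82.1 and 59.2 against 624, 193 and 314 (log2 change 2.25, SE 0.39, limma adjusted p = 0.00579). In all these genes even the lowest knockout library was above the highest wild-type one by more than 2-fold. Ifit1bl1 (Entrez 667373, chr19:34592888-34662981), a paralog of Ifit1 in the same cluster, was 920.2, 1413 and 2336 against 9696, 5453 and 8034 (log2 change 2.37, SE 0.34, limma adjusted p = 0.00321). Per kilobase of exon it had the highest level of all 35 members in both groups, at 689 and 3419 normalized reads per kb. Ifit3 shares 51.2% of its 50-base words with Ifit3b, so the split of reads between these paralogs is uncertain.

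Oas proteins make 2′-5′ linked oligoadenylates that activate the nuclease RNase L, and the Oas-like Oasl1 and Oasl2 carry ubiquitin-like domains. Oasl2 (Entrez 23962, chr5:114896926-114912245) was 249, 347 and 434 in the wild-type libraries against 2135, 1262 and 1293 in the knockout libraries, from 344 ± 92.5 to 1563 ± 496 (SD, n = 3; log2 change 2.17, SE 0.26). Its limma adjusted p of 0.00165 was the smallest of the 35. Oasl1 (Entrez 231655, chr5:114923143-114937911), next to it on chromosome 5, was 339, 439 and 447 against 1513, 924 and 1074 (log2 change 1.50, SE 0.20, limma adjusted p = 0.00244). Oas1a (Entrez 246730, chr5:120896256-120907544) moved least and varied least of the 7 raised Ifit and Oas genes, at 1149, 1148 and 1164 against 2071, 1931 and 1651 (log2 change 0.70, SE 0.11, limma adjusted p = 0.00458). Oas1a shares 57.6% of its 50-base words with Oas1g, which was also raised (866, 859 and 962 against 1667, 1695 and 1399). The dynamin-like antiviral GTPases Mx1 and Mx2 were low and not called. Mx1 (Entrez 17857, chr16:97447035-97462906) was 42.5, 61.6 and 63.7 against 129, 56.9 and 94.5 (limma adjusted p = 0.143), and Mx2 (Entrez 17858, chr16:97536081-97560901) was 17.0, 15.6 and 26.4 against 51.4, 18.6 and 28.6 (limma adjusted p = 0.264). In both genes knockout 2 lay within the wild-type range while knockout 1 was the highest library. Most laboratory strains, C57BL/6 among them, are known to carry a defective Mx1 gene.

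The gamma-like GTPases had a similar median log2 change, 2.03 over 8 genes, but only Gbp3 passed the threshold. Gbp proteins coat pathogen vacuoles and bacteria and promote inflammasome activation. Gbp2 (Entrez 14469, chr3:142620663-142638008) was 47.8, 29.3 and 442 in the wild-type libraries against 4981, 219 and 833 in the knockout libraries, from 173 ± 233 to 2011 ± 2590.4 (SD, n = 3; log2 change 3.48, SE 1.28, limma adjusted p = 0.073). Its SD exceeded its mean in both groups, and knockout 2 lay below the library labelled wild type 3. Gbp3 (Entrez 55932, chr3:142560016-142573213) was 21.2, 9.78 and 44.6 against 477, 57.9 and 111 (log2 change 2.72, SE 0.79, limma adjusted p = 0.0363). Gbp7 (Entrez 229900, chr3:142530336-142550151), printed above, was 25.5, 14.7 and 84.7 against 341, 45.5 and 133 (log2 change 1.97, limma adjusted p = 0.0999). Gbp3 was the only gene of the 8 in which knockout 2 was above every wild-type library, against 38.2% of all genes tested. Gbp6 (Entrez 100702, chr5:105270702-105295871) was 24.4, 12.7 and 40.1 against 151, 11.4 and 39.1 (log2 change 0.80, limma adjusted p = 0.495), and only knockout 1 was above the wild-type range. Of its 50-base words 70.7% occur in other genes, so its count is uncertain.

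The Irg proteins disrupt the vacuoles of intracellular pathogens, with Irgm1 and Igtp acting as regulators of the others. Igtp (Entrez 16145, chr11:58199556-58207592) was 102, 67.5 and 279 in the wild-type libraries against 1686, 197 and 459 in the knockout libraries (log2 change 2.09, SE 0.79, limma adjusted p = 0.079). Irgm1 (Entrez 15944, chr11:48865245-48871420) was 351, 329.5 and 661 against 1838, 477 and 852 (log2 change 1.09, SE 0.47, limma adjusted p = 0.115). Iigp1 (Entrez 60440) was 23.4, 2.93 and 139 against 797, 55.9 and 258 (log2 change 3.26, SE 1.34, limma adjusted p = 0.1). In these genes the order of libraries was the same: knockout 1, knockout 3, the library labelled wild type 3, knockout 2, then wild type 1 and 2. Ifi47 (Entrez 15953, chr11:49076587-49096987) was 87.0, 81.2 and 181 against 918, 91.1 and 247 (log2 change 1.33, limma adjusted p = 0.205), with knockout 2 only just above wild type 1.

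**Figure D2:**
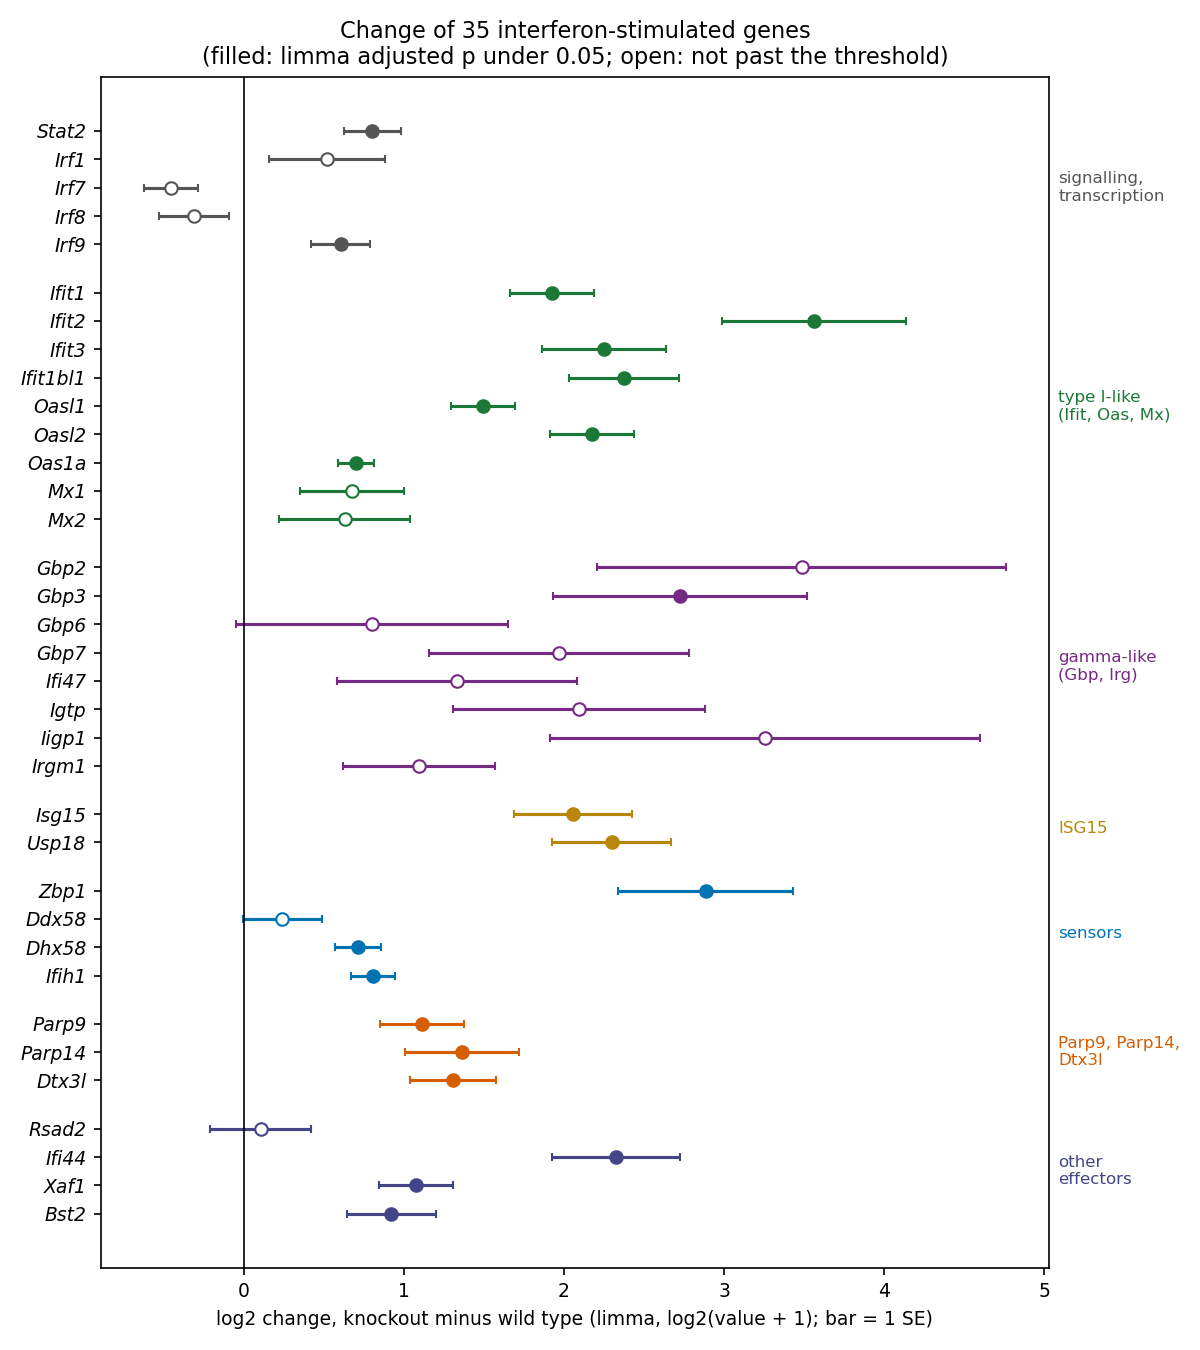
Log2 change of each member, knockout minus wild type, with bars of 1 SE from limma. The Ifit and Oas genes and the Gbp and Irg genes cover a like range of changes, but bars are wider in the Gbp and Irg group, where only Gbp3 passed the threshold.

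The spread between libraries of 1 group was wider in the gamma-like genes than in most type I-like genes. Across the knockout libraries the highest value (plus 1) was a median of 2.12 times the lowest in the Ifit, Oas and Mx genes (range 1.25 to 5.35), and 9.26 times in the Gbp and Irg genes (range 3.85 to 22.6). Over all genes tested this ratio had a median of 1.35. Across the wild-type libraries the median ratios were 1.49 for the type I-like group, 4.16 for the gamma-like group and 1.24 for all genes. The standard deviation of log2 values between knockout libraries had a median of 0.57 in the type I-like group, 1.61 in the gamma-like group and 0.23 over all genes. Gbp2, at 219 to 4981 normalized reads in the knockout libraries, had the widest knockout ratio of all 35. No test was made of the difference between the groups, because the genes share libraries and are not replicates.

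**Figure D3:**
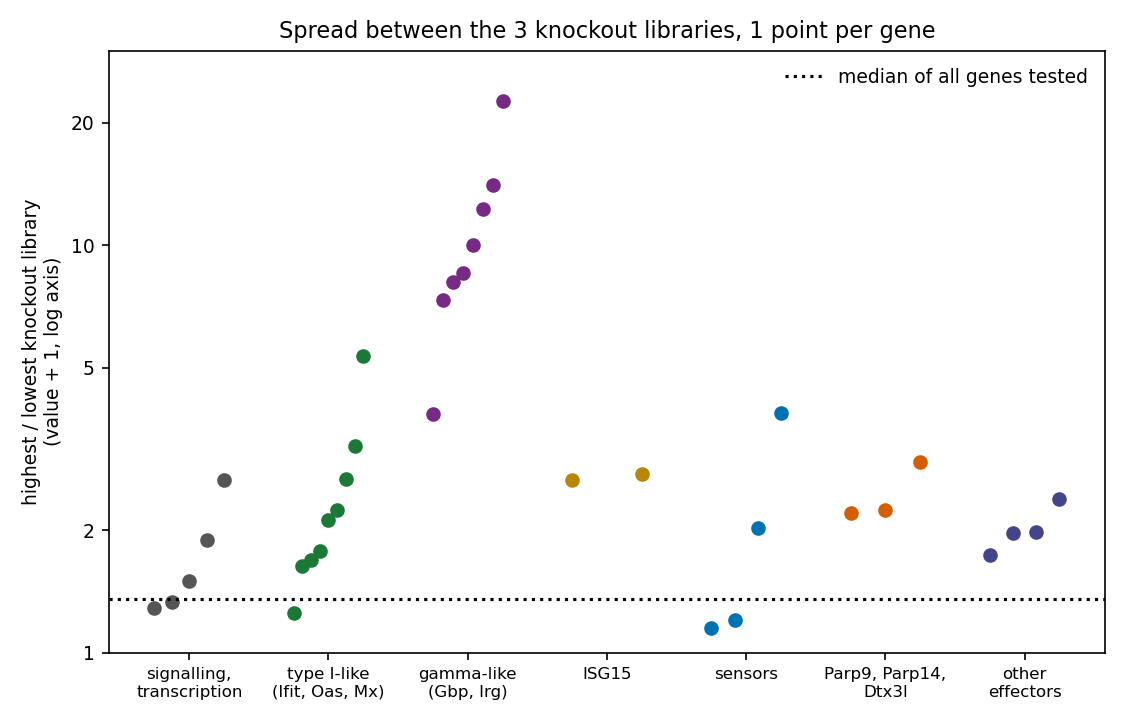
Ratio of the highest to the lowest knockout library for each gene, as normalized reads plus 1 on a log axis, by gene group, with the median of all genes tested as a dotted line. Points of the gamma-like group run from 3.85 to 22.6, and those of the type I-like group from 1.25 to 5.35.

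The libraries held a common order. Knockout 1 was the highest of all 6 libraries in 32 of the 35 members, against 30.5% of all genes tested. The knockout order 1, 3, 2 from high to low was seen in 28 members, 8 of 9 type I-like and 8 of 8 gamma-like among them, against 18.1% of all genes. The library labelled wild type 3 was the highest wild-type library in 27 members and in 8 of 8 gamma-like genes, against 34.8% of all genes. Knockout 2 was below it in 14 members, a share under the 49.5% of all genes, but in 7 of the 8 gamma-like genes and in 2 of the 9 type I-like genes.

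As mean log2 levels relative to the wild-type mean, the type I-like group was at -0.22, -0.04 and 0.26 in the wild-type libraries and at 2.35, 1.22 and 1.69 in the knockout libraries. The gamma-like group was at -0.24, -1.09 and 1.33 and at 3.79, 0.51 and 1.98. On this scale every knockout library was above every wild-type library for the type I-like group, whereas for the gamma-like group knockout 2 was below the library labelled wild type 3. The difference between the groups, type I-like minus gamma-like, was 0.02, 1.05 and -1.07 in the wild-type libraries. Both groups are set relative to their wild-type means, so mixed signs among wild-type libraries were fixed in advance. In the knockout libraries the difference was -1.43, 0.71 and -0.29, so its sign differed between libraries of that group. Lists of 37 other type I-like and 24 other gamma-like genes, none of them among the 35, also ran in the knockout order 1, 3, 2 and were highest, among wild-type libraries, in the library labelled wild type 3, at -0.05, -0.11 and 0.16 against 1.46, 0.68 and 0.88 for the first and -0.27, -0.78 and 1.05 against 3.25, 0.56 and 1.99 for the second.

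**Figure D4:**
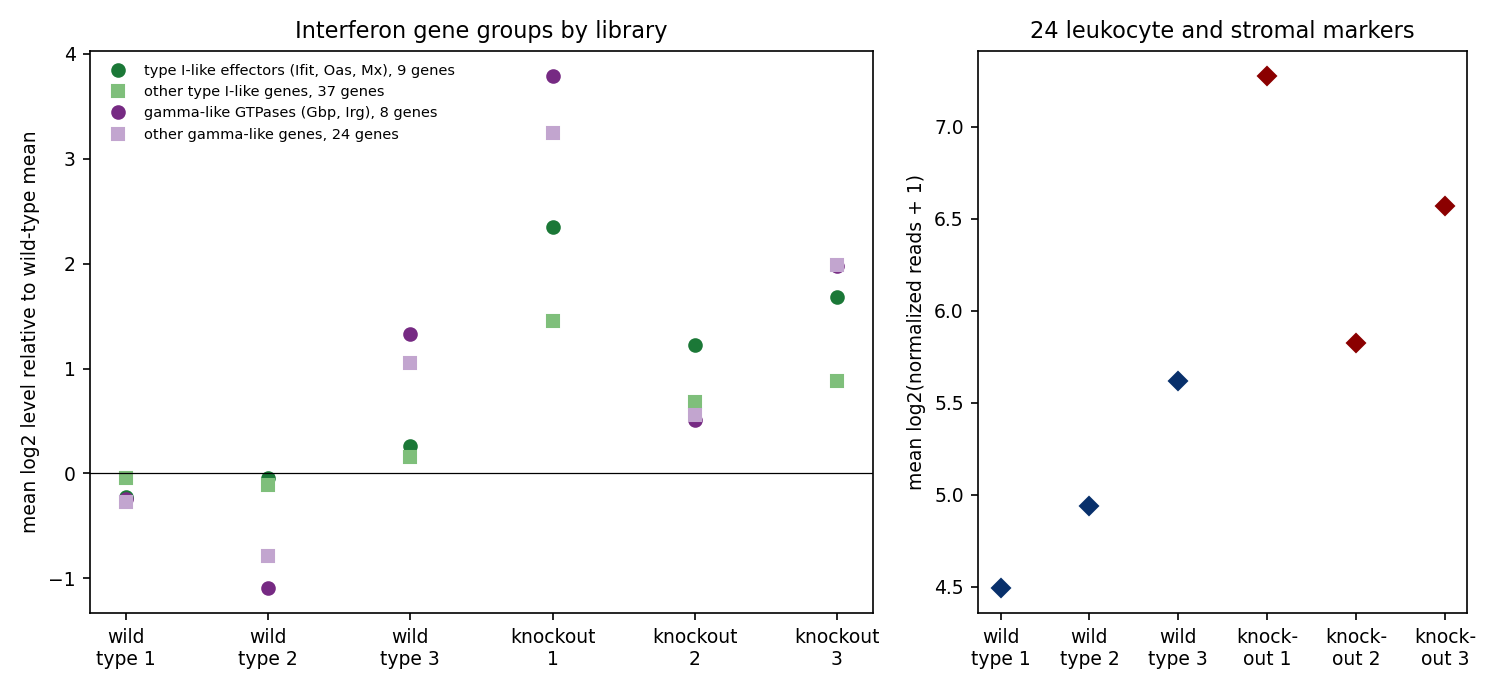
Left, mean log2 level of 4 interferon gene groups in each library, relative to the mean of the 3 wild-type libraries; right, mean log2 level of 24 leukocyte and stromal markers. In knockout 2 the gamma-like groups are at 0.51 and 0.56, below the 1.33 and 1.05 of the library labelled wild type 3, and the marker level runs from 4.49 in wild type 1 to 7.27 in knockout 1.

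Both members of the ISG15 system were raised. Isg15 (Entrez 100038882, chr4:156199424-156200818), a ubiquitin-like modifier with 3 overlapping response elements in its promoter, was 115, 168 and 217 in the wild-type libraries against 1168, 592 and 440.1 in the knockout libraries, from 167 ± 51.1 to 733 ± 384 (SD, n = 3; log2 change 2.05, SE 0.37, limma adjusted p = 0.00681). Usp18 (Entrez 24110, chr6:121245906-121270917), the protease that removes ISG15 and a brake on the type I receptor, was 32.9, 40.1 and 44.6 against 366, 132 and 154 (log2 change 2.30, SE 0.37, limma adjusted p = 0.0047). In both genes the groups were well apart, and for Isg15 knockout 3, not knockout 2, was the lowest knockout library.

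Of the 4 nucleic acid sensors 3 were raised. Zbp1 (Entrez 58203, chr2:173206612-173218959), a Z-nucleic acid sensor that triggers necroptosis, was 90.2, 82.1 and 235 against 1709.8, 441 and 952 (log2 change 2.88, SE 0.54, limma adjusted p = 0.00798). Ifih1 (Entrez 71586, chr2:62595618-62646255), which encodes the long double-stranded RNA sensor MDA5, was 637, 713 and 871 against 1406, 1231 and 1221 (log2 change 0.81, SE 0.14, limma adjusted p = 0.0058). Dhx58 (Entrez 80861, chr11:100694884-100704271), its cofactor LGP2, was 157, 142 and 131 against 262, 227 and 218 (log2 change 0.71, SE 0.14, limma adjusted p = 0.0101). Ifih1 and Dhx58 had the tightest knockout values of the 35, with the highest at most 1.20 times the lowest, and Zbp1 varied 3.87-fold. Ddx58 (Entrez 230073, chr4:40203777-40239825), which encodes the 5′-triphosphate RNA sensor RIG-I, was 207, 200.5 and 178 against 319, 157 and 243 (log2 change 0.24, SE 0.25, limma adjusted p = 0.477). Knockout 2 was the lowest of the 6 libraries for it.

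Parp9, Parp14 and Dtx3l lie together on chromosome 16 and were all raised. PARP9 and DTX3L form an ADP-ribosylating ubiquitin ligase complex, and PARP14 is a mono-ADP-ribosyltransferase. Dtx3l (Entrez 209200, chr16:35926515-35939027) was 374, 461 and 474 against 1555, 705 and 1131 (log2 change 1.31, SE 0.27, limma adjusted p = 0.0104). Parp9 (Entrez 80285, chr16:35938470-35972621) was 549.8, 577 and 648 against 1922, 859 and 1269.7 (log2 change 1.12, SE 0.26, limma adjusted p = 0.0172). Parp14 (Entrez 547253, chr16:35831892-35871518) was 334, 346 and 428 against 1495, 509 and 1112 (log2 change 1.36, SE 0.35, limma adjusted p = 0.0248). All 3 showed the knockout order 1, 3, 2. Exons of Parp9 and Dtx3l overlap by 458 bases on opposite strands, which non-stranded libraries cannot assign.

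Of the other antiviral and death effectors 3 of 4 were raised. Ifi44 (Entrez 99899, chr3:151730922-151749910), the member with the lowest wild-type level per kilobase, was 25.5, 12.7 and 10.9 against 126, 63.1 and 65.9 (log2 change 2.32, SE 0.40, limma adjusted p = 0.0058). Xaf1 (Entrez 327959, chr11:72301461-72313733), a pro-apoptotic antagonist of XIAP, was 141, 131 and 184 against 434, 249 and 297 (log2 change 1.07, SE 0.23, limma adjusted p = 0.0124). Bst2 (Entrez 69550, chr8:71534255-71537472), the virion tether tetherin, was 151, 110.5 and 107 against 350.1, 197 and 178 (log2 change 0.92, SE 0.28, limma adjusted p = 0.0391). Rsad2 (Entrez 58185, chr12:26442743-26456452), the antiviral enzyme viperin, was 249, 347 and 257 against 362, 179 and 429 (log2 change 0.11, SE 0.32, limma adjusted p = 0.814). The Rsad2 groups overlapped, with knockout 3 the highest and knockout 2 the lowest of the 6 libraries, and its promoter held a response element match at -120 to -111.

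The calls rested unevenly on single libraries. Members raised numbered 23 without the library labelled wild type 3 (12.7% of all genes raised), gaining Gbp2, Gbp7 and Iigp1 and losing Bst2. Without knockout 2 they numbered 27 (12.7%), gaining Gbp2, Gbp7, Ifi47, Igtp, Irf1, Irgm1 and Mx1 and losing Bst2. Without wild type 1 or wild type 2 there were 14 (7.31% and 7.66% of all genes raised, 6.51% and 6.72% lowered), both fits losing Bst2, Gbp3, Irf9, Parp14, Parp9, Stat2 and Xaf1. Without knockout 1 there were 18 (11.3%), losing Bst2, Gbp3 and Irf9, and without knockout 3 also 18 (11.6%), losing Gbp3, Irf9 and Parp14. The Ifit and Oas genes kept all 7 calls in each of these fits. Of the gamma-like genes 4 were raised without the library labelled wild type 3 and 6 without knockout 2, but 0 in each of the other leave-one-out fits by limma, in which 1 had an unadjusted p under 0.05. With all 6 libraries edgeR raised 1 of the 8 gamma-like genes and DESeq2 raised 2. Ifit1, Ifit2, Ifit3, Ifit1bl1, Oasl1, Oasl2, Oas1a, Isg15, Usp18, Zbp1, Dhx58, Ifih1, Dtx3l and Ifi44, 14 in all, were raised in all 15 fits other than the one with a marker covariate.

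Myeloid and fibroblast markers moved with the same libraries. The 10 myeloid markers, among them Lyz2, Cd14 and Csf3r, summed to 579.5, 964 and 1198 normalized reads in the wild-type libraries and to 4033, 1701 and 2332 in the knockout libraries. Of these 10, 7 were raised, against 15.0% of all genes tested. Fibroblast markers (5, collagens among them) summed to 103, 218 and 488 against 2093, 320 and 676, and 1 of 4 tested was raised, against the same 15.0%. Both sums had the knockout order 1, 3, 2 that the interferon genes had, and the fibroblast sum put knockout 2 below the library labelled wild type 3, as in the gamma-like genes. The 11 T, intraepithelial and natural killer lymphocyte markers summed to 80.7, 76.3 and 124 against 183, 54.8 and 128, so knockout 2 had the lowest sum. This sum, too, had the knockout order 1, 3, 2 and put knockout 2 below the library labelled wild type 3. Only 3 of these 11 passed the filter, and 0 were raised. All 3 had that knockout order and knockout 2 below the library labelled wild type 3, against 18.1% and 49.5% of all genes tested. Lck weighed heavily in the sums, at 41.4, 40.1 and 45.5 against 31.4, 14.5 and 24.8. Cd3e and Nkg7, few in reads, were above every wild-type library in knockout 2, whereas Cd3g, Gzma and Lck were lowest there. B and plasma cell markers (6) summed to 40.3, 11.7 and 78.3 against 123, 51.7 and 185. Plasmacytoid dendritic cell markers (3) summed to 9.55, 10.8 and 16.4 against 24.1, 20.7 and 28.6, so these groups did not overlap. The 1 of these 3 that was tested was raised by limma and edgeR, but not by DESeq2. It was raised by limma in no leave-one-out fit except the one without the library labelled wild type 3. Endothelial markers (4) were lower in every knockout library, at 23.4, 28.4 and 19.1 against 15.7, 9.31 and 18.1, with Cldn5 at 0 in all 6 libraries. With the mean log2 level of 24 leukocyte and stromal markers as a covariate, limma raised 0 of the 35 members, with 11 higher and 4 lower at an unadjusted p under 0.05, and raised 0.647% and lowered 0.779% of all genes. At that unadjusted level 7 type I-like members were higher and 0 lower, and 0 gamma-like members were higher and 2 lower. In that fit the median log2 change was 1.05 for the type I-like and -0.86 for the gamma-like group, and the smallest limma adjusted p of a member was 0.0576 (Oasl2). The marker level was 4.49, 4.94 and 5.62 in the wild-type libraries against 7.27, 5.82 and 6.57 in the knockout libraries, so its groups did not overlap and marker level and genotype cannot be told apart with these 6 libraries.

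The interferons themselves were at the limit of detection. Of 21 ligand genes none passed the filter and 16 had no read in any library. Ifng, the gamma ligand, had 0 reads in all 3 wild-type libraries and 17, 1 and 1 reads in the knockout libraries, so that knockout 1, the library with the highest Gbp and Irg levels, also held nearly all Ifng reads. Ifnb1 had 1 read in knockout 2, Ifnk 1 read in knockout 1, Ifnl3 1 read in the library labelled wild type 3, and Ifnz 1 or 2 reads in every library. A count of 0 allows up to 3 reads in a library, counting error only.

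Among receptors and kinases limma raised 4 of 9, against 15.0% of all genes tested, and edgeR and DESeq2 each raised 3, with 0 lowered by any of them. These calls were not stable to single libraries: limma raised 3 of the 9 without knockout 1, 2 without knockout 2 or knockout 3, 1 without wild type 1 or the library labelled wild type 3, and 0 without wild type 2, where 6 were higher at an unadjusted p under 0.05. Ifnar2, a chain of the type I receptor, rose from 32.4 ± 7.48 to 72.4 ± 20.3 (SD, n = 3; limma adjusted p = 0.0213), and its partner chain Ifnar1 was at 505 ± 39.8 and 488 ± 11.5 (limma adjusted p = 0.764). Ifnlr1, the lambda-specific receptor chain, was 144, 155 and 209 against 242, 254 and 273 (limma adjusted p = 0.031), and the shared chain Il10rb rose from 778 ± 68.1 to 1011 ± 65.1 (limma adjusted p = 0.0359). Both lambda receptor chains passed with all 6 libraries, but neither passed without knockout 2, wild type 1 or wild type 2 (limma adjusted p 0.0584 to 0.138). The gamma receptor chains Ifngr1 (3133 ± 352 and 3754 ± 541, limma adjusted p = 0.21) and Ifngr2 (1456 ± 168 and 1929 ± 360.3, limma adjusted p = 0.0974) did not. Among the kinases Tyk2 rose from 566 ± 21.3 to 707 ± 38.9 (limma adjusted p = 0.046), and Jak1 (limma adjusted p = 0.595) and Jak2 (limma adjusted p = 0.071) did not pass. Ifngr2 was highest in knockout 2, the knockout library with the lowest Gbp and Irg levels.

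Of 6 genes that restrain interferon signalling 1 was raised and 1 lowered, shares near the 15.0% and 15.4% of all genes tested. Socs3, an inhibitor of JAK kinases, was raised (166, 200.5 and 304 against 1599.7, 381 and 852, limma adjusted p = 0.0226). Pias1, a SUMO ligase that inhibits STAT activity, was lowered (255, 257 and 220.4 against 166, 165 and 202, limma adjusted p = 0.0464). Neither call held without wild type 1 or wild type 2, and Socs3 also did not pass without knockout 3, nor Pias1 without knockout 1, knockout 2 or the library labelled wild type 3. Socs1, the inhibitor induced by gamma, was 24.4, 26.4 and 41.9 against 92.2, 15.5 and 31.5 (limma adjusted p = 0.767), again high in knockout 1 alone. Upstream, 2 of 11 tested sensing and adaptor genes were raised, a share near the 15.0% of all genes, and 0 to 3 were raised with each library left out in turn. They were Tmem173, which encodes STING, the adaptor for cytosolic DNA (31.6 ± 8.91 to 269 ± 229, limma adjusted p = 0.0117), and the kinase gene Tbk1 (425 ± 35.4 to 558 ± 45.9, limma adjusted p = 0.0403).

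Beyond the 35, 20 of 37 other type I-like genes and 9 of 24 other gamma-like genes were raised, against 15.0% of all genes tested, and none of either list was lowered by limma, edgeR or DESeq2. With each library left out in turn the first count ranged from 16 to 21. The second fell to 2 without wild type 1 or wild type 2 and to 3 without knockout 1 or knockout 3, was 8 without the library labelled wild type 3 and rose to 19 without knockout 2, and it was 11 with edgeR and 15 with DESeq2. Helz2, of the first list, was the 1 gene of both lists that was lower at an unadjusted limma p under 0.05. Among the first, Oas2 was 32.9, 47.9 and 54.6 against 449.7, 188 and 472 (log2 change 2.92, limma adjusted p = 0.00203), Oas3 went from 90.4 ± 23.5 to 519 ± 239 (limma adjusted p = 0.00233), and Ddx60, a helicase, from 134 ± 36.8 to 592 ± 92.1 (limma adjusted p = 0.000987). Ifit1bl2, in the Ifit cluster, went from 187 ± 34.5 to 661 ± 124 (limma adjusted p = 0.00105). Ifitm1, an inhibitor of viral entry, was 8.49, 5.87 and 4.55 against 282, 84.8 and 63.0 (log2 change 4.02, limma adjusted p = 0.00262). Among the gamma-like genes Ido1, the tryptophan-degrading enzyme, was 5.31, 5.87 and 40.1 against 1673, 100.4 and 509.8 (log2 change 5.19, SE 1.07, limma adjusted p = 0.0107). Cxcl10, a T cell chemokine, was 39.3, 40.1 and 117 against 521, 175 and 291 (limma adjusted p = 0.0125), and Nlrc5, the class I MHC transactivator, was 9.55, 5.87 and 59.2 against 269, 53.8 and 155 (limma adjusted p = 0.0344). Batf2 (236 ± 61.9 to 778 ± 289.6, limma adjusted p = 0.00588) and the peptide-loading gene Tapbp (1642 ± 156 to 2391 ± 470.5, limma adjusted p = 0.0373) completed those named. Ido1, Cxcl10 and Nlrc5 were highest in knockout 1 and, within the wild-type group, in the library labelled wild type 3, like the Gbp and Irg genes. Knockout 2 was below the library labelled wild type 3 for Nlrc5, but above it for Ido1 and Cxcl10. Of the 24 other gamma-like genes tested, knockout 2 was below that library in 17, against 49.5% of all genes tested. It was above every wild-type library in 7, against 38.2%.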

How the data were processed

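RNA was sequenced from 6 libraries, 3 per group, made as non-stranded mRNA libraries with a TruSeq kit, per the labels' protocols. The submitters' processing notes list FastQC, TopHat, DESeq2 and the build mm10; how reads were assigned to genes, and with which annotation, is not given in the sources used here. Each deposited value is a normalized signal, a whole-number gene count over the DESeq2 size factor of its library, as the authors' table name, the submitters' processing notes and the values show. All values came out as whole reads within 0.001 of a whole number (100%), and the recovered reads total 10089313 to 12030844 per library. No replicate pair agreed within sampling noise (chi-square per degree of freedom 15.0 to 57.5). Entrez numbers were matched to symbols in the RefSeq table of GRCm38.p6 for 23666 of 23725 rows, and GRCm38 coordinates are from that table.

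Differences were modelled with limma 3.58.1 (R 4.3.3, trend prior) on log2(value + 1) for genes that reached 10 in 3 or more libraries, with Benjamini-Hochberg adjustment over all 12837 genes and a threshold of 0.05. A log2 change is knockout minus wild type on that scale and understates the change of low genes; values with ± are mean and SD of normalized reads. edgeR 4.0.16 and DESeq2 1.42.0 were run on the recovered reads. Other alternatives were pseudocounts of 0.5 and 5, no filter, a filter at 50, TMM and upper-quartile scaling, a marker covariate and leaving out each library. The limma, edgeR and DESeq2 fits with all 6 libraries were tested on simulated data. There genes varied independently, with no library effect beyond depth, unlike the common library order seen here. The marker covariate and leave-one-out fits were not simulated. Shared 50-base words and exon lengths came from GENCODE M21. All 35 members were named; of each further list up to 5 genes with the smallest adjusted p past the threshold were named, with every ligand that had a read and every receptor, and Socs1, Oas1g and Helz2 were chosen after their values were seen. Members, lists and alternatives were chosen with earlier results of these data known. Samples are grouped by the genotype label, and replicate numbers are in accession order.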

Additional observations from a re-analysis of the deposited data

How the results depend on the processing

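No paired analysis was possible because the replicate numbers only follow accession order and pair no libraries. All 35 members kept their call with pseudocounts of 0.5 or 5, without a filter and under TMM and upper-quartile scaling, as did the 33 still tested with a filter at 50; edgeR ended the call of Irf9 and DESeq2 added Irgm1. With each library left out in turn, members raised ranged from 14 to 27 and members lowered from 0 to 1, all genes raised from 924 to 1599 and lowered from 822 to 1805, genes of the 6 further interferon lists raised from 19 to 45 (36 with all libraries) and lowered from 0 to 1. The only lowered gene of these lists, Pias1, gave a count of 0 also without a filter, with DESeq2 and with the marker covariate. The median log2 change ranged from 1.61 to 2.15 for the type I-like and from 1.26 to 2.76 for the gamma-like group. Nr3c1 ranged from -2.82 to -1.57, passing only without the library labelled wild type 3 (limma adjusted p 0.064 to 0.127 in the other 5 fits). With the marker covariate 0 members, 2 genes of the further lists, 83 genes of all raised and 100 lowered passed; Nr3c1 was at -0.83, the type I-like median at 1.05 and the gamma-like median at -0.86. That fit also turned the sign of Irf1 (-0.76), Mx1 (-0.37), Mx2 (-0.64), Gbp2 (-1.26), Gbp6 (-2.02), Gbp7 (-0.90), Ifi47 (-1.43), Igtp (-0.77), Iigp1 (-0.82), Irgm1 (-0.69), Ddx58 (-0.31) and Rsad2 (-0.56). With each library left out, Gbp6 ranged from -0.12 (without knockout 1) to 1.69 (without knockout 2) and Rsad2 from -0.14 (without knockout 3), through -0.02 (without knockout 1), to 0.48 (without knockout 2). The cause of these changes was not tested. Depth limits the ligands, which had at most 17 reads in a library.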
